A study of Mus musculus with 24 samples.

Results

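The genes described here are 10 markers and regulators of the distal convoluted tubule and the connecting tubule of the mouse kidney, chosen by their symbols from the 14785 genes of the deposited table. They are Slc12a3, Wnk1, Wnk4, Stk39, Pvalb, Trpm6, Trpv5, Calb1, Slc8a1 and Klk1, and each has 1 entry in that table. Bulk RNA sequencing was made from polyA-selected RNA of kidneys of male C57/BL6 mice, aged 8 to 9 weeks at the start, with 24 libraries in 6 groups of 4 animals. Kidneys were taken after sham surgery, or with the ureter tied off for 2 days (UUO2) or 7 days (UUO7). In the other groups the ureter was reimplanted after 7 days, and the mice then recovered over 1 week (R1W), over 2 weeks (R2W) or over 4 weeks (R4W). Each group had 10 animals, of which 4 were sequenced, and the labels name no genetic change. The series is titled as cortical kidney while each sample is labelled as kidney only.

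The distal convoluted tubule takes up sodium and chloride through the thiazide-sensitive cotransporter Slc12a3, which the WNK kinases switch on through the kinase SPAK, encoded by Stk39. The same segment takes up magnesium through Trpm6, and its late part and the connecting tubule take up calcium through Trpv5, carry it on calbindin (Calb1) and export it through the exchanger Slc8a1. Parvalbumin (Pvalb) marks the early distal convoluted tubule, and the connecting tubule secretes tissue kallikrein (Klk1).

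Promoters are shown for 3 genes that were lower in both obstruction groups and for Trpv5, which was higher in both. The sequences come from the set of RefSeq promoters used here (GRCm38.p6), which held 9 of the 10 genes and had no entry for Calb1. Each lies within the 250 bases before the RefSeq start, read 5′ to 3′ on the gene's strand, and bases inside the deposited gene span were left off (7 in Slc12a3 and 46 in Trpv5). Matches to 4 motifs, searched on both strands in the 250 bases, are in capitals. These were the TATA box, with the letters TATAAA, and AGGTCA, which is known from the sites of nuclear receptors. The other two were AGAACA, which is known from the sites of steroid receptors, and GTTAAT, which is known from HNF1 sites.
Slc12a3, chr8:94328958-94329200, plus strand: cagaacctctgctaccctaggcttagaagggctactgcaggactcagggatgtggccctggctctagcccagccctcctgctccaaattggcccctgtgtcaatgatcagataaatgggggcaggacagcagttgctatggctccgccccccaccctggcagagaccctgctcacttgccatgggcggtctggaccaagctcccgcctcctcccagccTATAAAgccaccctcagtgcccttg
Pvalb, chr15:78206401-78206650, minus strand: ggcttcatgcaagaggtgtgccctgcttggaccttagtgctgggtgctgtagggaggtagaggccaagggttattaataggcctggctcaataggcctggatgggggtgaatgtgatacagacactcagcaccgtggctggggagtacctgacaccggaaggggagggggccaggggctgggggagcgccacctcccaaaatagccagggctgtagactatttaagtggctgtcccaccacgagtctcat
Klk1, chr7:44225110-44225359, plus strand: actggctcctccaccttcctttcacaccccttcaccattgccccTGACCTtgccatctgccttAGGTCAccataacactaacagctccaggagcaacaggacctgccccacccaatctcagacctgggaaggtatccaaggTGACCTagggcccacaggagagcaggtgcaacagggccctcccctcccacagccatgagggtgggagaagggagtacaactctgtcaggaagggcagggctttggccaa
Trpv5, chr6:41680770-41680973, minus strand: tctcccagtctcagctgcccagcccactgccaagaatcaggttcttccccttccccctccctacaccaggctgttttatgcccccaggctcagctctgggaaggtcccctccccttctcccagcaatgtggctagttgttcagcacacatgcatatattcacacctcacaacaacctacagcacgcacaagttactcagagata
Slc12a3 had TATAAA starting at -32, counted from the RefSeq start. Trpv5 had it at -43, which falls in the bases not shown. AGGTCA or its complement began at -206, -187 and -109 in Klk1, and Pvalb held none of the 4 motifs. Among all 32851 windows of this length, 12.4% held TATAAA, 14.0% AGGTCA, 16.1% AGAACA and 6.43% GTTAAT. A match describes letters only.

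Levels are given as FPKM, fragments per kilobase of transcript, scaled to library size, so that genes can be compared per length. Differences are those of log2(FPKM + 1), so that for genes of low level they come out too small, with the moderated standard error (SE) of limma and a Benjamini-Hochberg adjusted p over all 14785 genes. A gene was called at an adjusted p under 0.05. FPKM is relative to the rest of the library, and the median gene lay above sham by 0.09 in UUO2, 0.42 in UUO7, 0.37 in R1W, 0.32 in R2W and 0.30 in R4W. Differences are therefore also given after every library was rescaled by its median ratio to the average library ("rescaled"). In bulk kidney, fewer cells of a type and less RNA per cell cannot be told apart. Implied depth was 24800000 to 35400000 fragments in 20 libraries and is unknown in the 4 UUO2 libraries. These 4 have sample descriptions of another form, and the series' design names 20 multiplexed libraries, so the UUO2 group cannot be told apart from a sequencing batch. The title of R4W replicate 2 says 4 weeks and its treatment label 2 weeks. Adipose marker genes summed to 120.6 FPKM in sham replicate 2, 825.1 in R4W replicate 1 and 240.5 in R4W replicate 3, and to at most 14.02 FPKM in any other library.

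Most of the 10 genes were lower in obstructed kidneys than in sham kidneys. In UUO7 against sham limma called 7 lower and 2 higher, where 17.8% of all genes were called lower and 60.1% higher. After rescaling 7 were lower and 1 higher, against 36.5% of all genes in each direction. The median difference of the 10 was -0.87, compared with 0.42 for all genes. In UUO2 against sham 8 were lower and 1 higher, where 17.0% of all genes were lower and 32.3% higher. Rescaled, the UUO2 counts were also 8 and 1, against 25.5% and 25.3% of all genes. The median difference of the 10 in UUO2 was -0.89 and that of all genes 0.09. Markers of other cell types moved as well. The summed FPKM of the 6 proximal tubule markers was 3247 to 3817 in sham and 746.3 to 913 in UUO7, and that of the 5 injured tubule markers 80.8 to 142 and 1734 to 2158. Of the markers of neighbouring segments in UUO7, limma called 4 of 5 of the thick ascending limb (median -1.02), 4 of 5 of principal cells (-1.23) and 4 of 5 of intercalated cells (-0.75) lower, and 1 of the thick ascending limb higher. For cells outside the tubule, the 5 macrophage markers summed to 39.2 to 62.8 FPKM in sham and 682 to 851 in UUO7, and the 5 fibroblast markers to 28.4 to 66.8 and 498 to 648. The 5 endothelium markers summed to 45.0 to 81.5 FPKM in sham and 119.8 to 135 in UUO7. In UUO2 the proximal tubule markers summed to 1376 to 2284 FPKM, the injured tubule markers to 779 to 1435, the macrophage markers to 61.7 to 139.7 and the fibroblast markers to 96.3 to 188. The endothelium markers, which were higher in UUO7, summed to 22.7 to 52.1 FPKM in UUO2, with 3 of 5 called lower (5 of 5 rescaled), and 3 of 4 podocyte markers were lower and 1 higher (3 and 0 rescaled). The part of these cells in the lower levels was not tested.

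**Figure D1:**
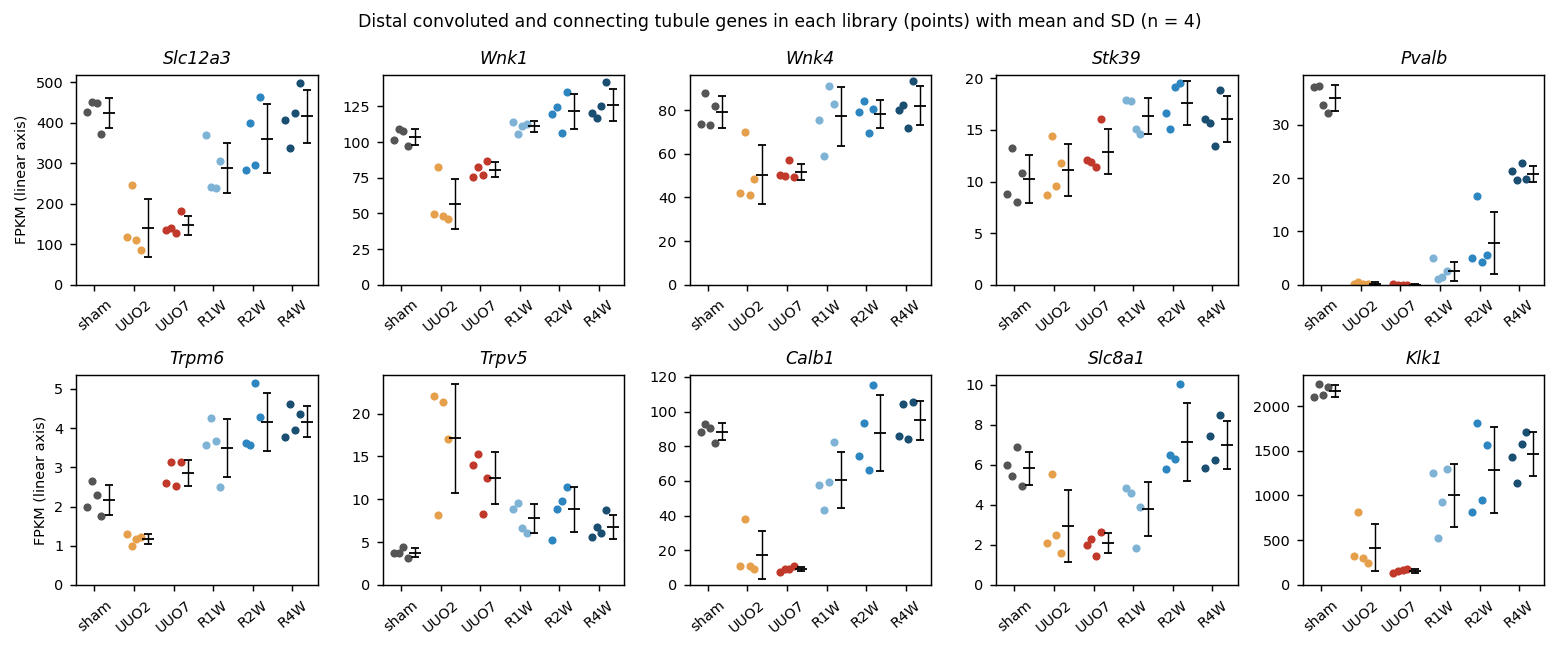
FPKM (y axis, linear) of the 10 genes in each of the 4 libraries of each group (points), with the mean and SD beside them. Pvalb is at most 0.51 FPKM in the UUO2 and UUO7 libraries, and Trpv5 has its lowest levels in sham.

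Slc12a3 (ENSMUSG00000031766, mm10 chromosome 8, 94329201 to 94366214, plus strand), the cotransporter that defines the distal convoluted tubule, stood at 427, 451, 449 and 372 FPKM in sham. It was 119, 246, 109 and 86.2 FPKM in UUO2 and 136, 140.1, 129 and 181 FPKM in UUO7. Every obstructed kidney lay below every sham kidney, and UUO2 replicate 2 lay nearest to sham. The difference between UUO7 and sham was -1.54 (SE 0.23, limma adjusted p = 4.3e-06), or -2.02 rescaled. In UUO2 it was -1.71 (SE 0.23, limma adjusted p = 5.23e-06), while between UUO7 and UUO2 it was 0.17 (SE 0.23, limma adjusted p = 0.536), or -0.18 rescaled (adjusted p = 0.549). On deposited values without UUO2 replicate 2, UUO7 exceeded UUO2 by 0.48 (limma adjusted p = 0.0267).

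Slc12a3 was 369, 242, 238 and 305 FPKM at R1W, 284, 399, 296 and 463 at R2W, and 407, 338, 423 and 498 in R4W. All R1W kidneys lay above all UUO7 kidneys and below all sham kidneys, and the R2W and R4W ranges overlapped sham on deposited values. Rescaled, all R2W kidneys lay below sham, by -0.65 (limma adjusted p = 0.0288), where the deposited difference was -0.26 (adjusted p = 0.326). R1W exceeded UUO7 by 0.96 (SE 0.23, limma adjusted p = 0.0103). R1W lay below sham by -0.58 (SE 0.23, limma adjusted p = 0.0313), or -1.02 rescaled (adjusted p = 0.0012). On deposited values that call was lost without sham replicate 1, 2 or 3 or R1W replicate 2 or 3 (adjusted p 0.0545 to 0.0872). The R4W difference from sham was -0.04 (SE 0.23, limma adjusted p = 0.896). It was -0.41 rescaled and also not called. Without R4W replicate 2, the library with the conflicting label, it was 0.06.

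The WNK kinases that act upstream of Slc12a3 were lower too, by smaller amounts. Wnk1 (chromosome 6, 119923969 to 120038672, minus strand) was 101, 109, 108 and 97.0 FPKM in sham, 49.6, 82.9, 48.5 and 46.0 in UUO2, and 75.4, 82.6, 77.1 and 86.8 in UUO7. Wnk4 (chromosome 11, 101260567 to 101277409, plus strand) was 73.5, 87.9, 73.2 and 82.0 FPKM in sham, 42.2, 70.0, 41.0 and 48.7 in UUO2, and 50.4, 49.7, 57.0 and 49.4 in UUO7. For both kinases all 8 obstructed kidneys lay below sham. Wnk1 was lower in UUO7 by -0.36 (SE 0.13, limma adjusted p = 0.0127), or -0.85 rescaled. Wnk4 was lower by -0.60 (SE 0.14, limma adjusted p = 0.000505), or -1.08 rescaled. The full-length kinase and the kidney-specific form of Wnk1 share 1 gene-level value here. Wnk1, Wnk4, Trpm6 and Klk1 each overlap 1 annotated gene on the opposite strand, Wnk1 also holds Mir706 on its own strand, and whether the counting used strand is not given in the sources used here.

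After reversal Wnk1 lay at 114, 106, 111 and 113 FPKM in R1W and at 120.1, 117, 125 and 142 in R4W. Wnk4 lay at 75.3, 59.0, 91.3 and 82.8 FPKM in R1W and at 80.2, 82.4, 71.9 and 93.5 in R4W. Both lay above the UUO7 range in R1W on deposited values, and rescaled the Wnk4 ranges overlapped. Wnk1 rose from UUO7 to R1W by 0.46 (SE 0.13, limma adjusted p = 0.0195), a call lost without UUO7 replicate 1 or 3 or R1W replicate 4 (adjusted p 0.0517 to 0.0561). Wnk4 rose by 0.55 (SE 0.14, limma adjusted p = 0.0126). All 4 R4W libraries had more Wnk1 than any sham library, by 0.28 (SE 0.13, limma adjusted p = 0.0589). That difference changed sign to -0.10 when rescaled, and it was called when the 2 groups were fitted alone (adjusted p = 0.00725). For Wnk4 the R4W difference from sham was 0.05 (limma adjusted p = 0.77), or -0.32 rescaled.

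Stk39 (chromosome 2, 68210445 to 68472268, minus strand), which encodes SPAK, was called in neither obstruction group. It was 8.83, 13.2, 7.97 and 10.9 FPKM in sham, 8.66, 14.4, 9.59 and 11.8 in UUO2, and 12.1, 11.9, 11.4 and 16.1 in UUO7. Sham and both obstruction groups overlapped. The UUO7 difference was 0.32 (SE 0.15, limma adjusted p = 0.0621), or -0.13 rescaled, and it passed the threshold without sham replicate 2 (0.44, adjusted p = 0.0127). In recovery Stk39 was 17.9, 17.8, 15.1 and 14.7 FPKM at R1W, 16.7, 15.1, 19.2 and 19.6 at R2W, and 16.1, 15.7, 13.5 and 18.9 in R4W. On deposited values every recovery kidney lay above every sham kidney. R4W exceeded sham by 0.62 (SE 0.15, limma adjusted p = 0.00145). Rescaled, the difference was 0.27 (adjusted p = 0.11) and the ranges overlapped.

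The ratio of 2 genes within a library does not depend on the scaling. Stk39 relative to Slc12a3 was 0.0178 to 0.0293 in sham, 0.0583 to 0.137 in UUO2, 0.0850 to 0.0891 in UUO7 and 0.0319 to 0.0464 in R4W. No obstructed or R4W library overlapped sham in this ratio. Wnk4 relative to Slc12a3 was 0.163 to 0.221 in sham, 0.273 to 0.443 in UUO7 and 0.170 to 0.243 in R4W. The UUO7 ratios lay above sham and the R4W ratios overlapped it.

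The rest of the WNK-SPAK network, a list of 11 genes that holds regulators, partners and other targets, had 10 in the table. In UUO7 against sham limma called 3 of the 10 lower and 1 higher, and after rescaling 8 lower and 1 higher. The shares of all genes in that comparison were 17.8% lower and 60.1% higher, or 36.5% each way rescaled. The median of the list was -0.15, or -0.62 rescaled, beside 0.42 and 0.01 for all genes. Slc12a1, the sodium-potassium-chloride cotransporter of the thick ascending limb, fell by 2.31 on the log2 scale, Klhl3, the adaptor that marks WNK kinases for degradation, fell by 1.27, and Cab39l, a SPAK partner, fell by 0.68. Oxsr1, the kinase most like SPAK, rose by 0.65 (limma adjusted p = 3.02e-08), or 0.19 rescaled (adjusted p = 0.00339). In R4W against sham 3 were higher, Oxsr1, Cab39 and Sgk1, where 54.8% of all genes were called higher and 11.6% lower. Rescaled, 0 were higher and 3 were lower, where the shares of all genes were 28.9% and 31.1%. Without sham replicate 2, 5 were called.

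Pvalb (ENSMUSG00000005716, chromosome 15, 78191114 to 78206400, minus strand), a cytosolic calcium-binding protein of the early distal convoluted tubule, was 37.1, 37.3, 33.8 and 32.3 FPKM in sham. It was 0.15, 0.51, 0.10 and 0.09 FPKM in UUO2, and in UUO7 it was 0.04 FPKM in replicate 1 and listed at 0 in the other 3. The mean in UUO2 was 0.00605 of the sham mean. The limma difference between UUO7 and sham was -5.16 (SE 0.29, adjusted p = 1.64e-11), whose size rests on the pseudocount because the group is near 0. Relative to Slc12a3, Pvalb was 0.0754 to 0.0869 in sham and 0.000913 to 0.00207 in UUO2. No other of the 10 genes had a group with a library listed at 0.

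Pvalb rose in recovery and stayed below sham. It was 4.98, 1.04, 1.45 and 2.65 FPKM at R1W, 4.93, 16.6, 4.20 and 5.65 at R2W, and 21.3, 19.6, 22.8 and 19.8 in R4W. No recovery library reached the lowest sham library. R4W exceeded R1W by 2.76 (SE 0.29, limma adjusted p = 7.28e-05) and lay below sham by -0.72 (SE 0.29, limma adjusted p = 0.0359), or -1.09 rescaled (adjusted p = 0.00499). Without sham replicate 1, 2 or 3 or R4W replicate 1, 2 or 4 the R4W call was lost (adjusted p 0.0555 to 0.0706), and with a pseudocount of 0.1 the adjusted p was 0.12. In R4W Pvalb relative to Slc12a3 was 0.0398 to 0.0579, below every sham ratio.

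Trpm6 (chromosome 19, 18749983 to 18892510, plus strand), the magnesium channel, was a low gene at 1.98, 2.64, 2.29 and 1.75 FPKM in sham. It was 1.31, 1.00, 1.16 and 1.22 FPKM in UUO2, 2.61, 3.13, 2.52 and 3.13 in UUO7, and 3.76, 4.62, 3.94 and 4.35 in R4W. UUO2 lay below sham, UUO7 overlapped it and R4W lay above it. The UUO2 difference was -0.54 (SE 0.12, limma adjusted p = 0.00086), or -0.66 rescaled. The UUO7 difference was 0.29 (SE 0.12, limma adjusted p = 0.0344) but -0.06 rescaled, and its call was lost without sham replicate 1 or 4 or UUO7 replicate 2 or 4 (adjusted p 0.08 to 0.119). In R4W the difference was 0.71 (SE 0.12, limma adjusted p = 3.34e-05), or 0.44 rescaled (adjusted p = 0.00132). UUO7 exceeded UUO2 by 0.82 (SE 0.12, limma adjusted p = 4.63e-06), a comparison in which group and batch cannot be told apart.

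Among 15 other genes of potassium, chloride and magnesium handling, 14 had an entry. In UUO7 against sham limma called 9 lower and 2 higher, or 12 lower and 1 higher rescaled, with medians of -0.77 and -1.25, where all genes had medians of 0.42 and 0.01. Of all genes 17.8% were lower and 60.1% higher, or 36.5% each way rescaled. Egf, whose product stimulates Trpm6 and which is made in the thick ascending limb and distal convoluted tubule, fell from 431 ± 12.3 FPKM (SD, n = 4) to 15.3 ± 1.78. Bsnd, the beta subunit of the distal chloride channels, fell by 1.49 on the log2 scale and Kcnj10, the basolateral potassium channel subunit, fell by 1.33. Slc41a1 and Slc41a3, magnesium transporters, rose by 0.50 and 0.73, and rescaled by 0.07 (adjusted p not under 0.05) and 0.38. In R4W against sham 4 were lower and 3 higher (11.6% and 54.8% of all genes), and rescaled 9 were lower and 2 higher (31.1% and 28.9% of all genes). The 3 further distal convoluted tubule markers with an entry were Pgam2, Emx1 and Tfap2b. In UUO7 Pgam2 fell by 1.35 and Emx1 fell by 0.73 on the log2 scale, while Tfap2b differed by -0.32 (limma adjusted p = 0.0631), or -0.75 rescaled and called.

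The calcium genes moved in opposite directions. Trpv5 (chromosome 6, 41652173 to 41680769, minus strand), the apical calcium channel, was 3.70, 3.78, 4.38 and 3.11 FPKM in sham, 22.1, 8.19, 21.3 and 17.0 in UUO2, and 14.0, 15.3, 8.27 and 12.5 in UUO7. Every obstructed kidney lay above every sham kidney, with UUO2 replicate 2 the lowest of UUO2. The difference from sham was 1.85 in UUO2 (SE 0.25, limma adjusted p = 4.78e-06) and 1.49 in UUO7 (SE 0.25, limma adjusted p = 1.69e-05). Rescaled, these were 1.77 and 1.07, both called.

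Calb1 (ENSMUSG00000028222, chromosome 4, 15881264 to 15908064, plus strand), the calcium carrier of the cytosol, was 88.1, 93.1, 90.5 and 81.6 FPKM in sham, 11.0, 38.1, 11.0 and 9.10 in UUO2, and 7.70, 9.30, 8.98 and 11.0 in UUO7. UUO7 lay below sham by -3.13 (SE 0.29, limma adjusted p = 5.12e-09), or -3.60 rescaled. Slc8a1 (chromosome 17, 81388691 to 81649607, minus strand), the basolateral sodium-calcium exchanger, was 5.99, 5.44, 6.91 and 4.97 FPKM in sham, 2.11, 5.57, 2.49 and 1.59 in UUO2, and 2.02, 2.31, 1.46 and 2.65 in UUO7. For Calb1 no obstructed kidney overlapped sham, and for Slc8a1 UUO2 replicate 2 lay within the sham range. Slc8a1 was lower in UUO7 by -1.14 (SE 0.24, limma adjusted p = 0.000241), or -1.52 rescaled. It is also expressed outside the tubule, and 2 annotated genes overlap it on the opposite strand.

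Within libraries the ratio of Trpv5 to Calb1 was 0.0381 to 0.0484 in sham. It was 1.87 to 2.00 in UUO2 replicates 1, 3 and 4, 0.215 in UUO2 replicate 2, and 0.921 to 1.82 in UUO7. It was 0.0736 to 0.221 in R1W and 0.0648 to 0.0828 in R4W. No library of any other group reached the sham range, and R4W lay nearest to it.

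**Figure D2:**
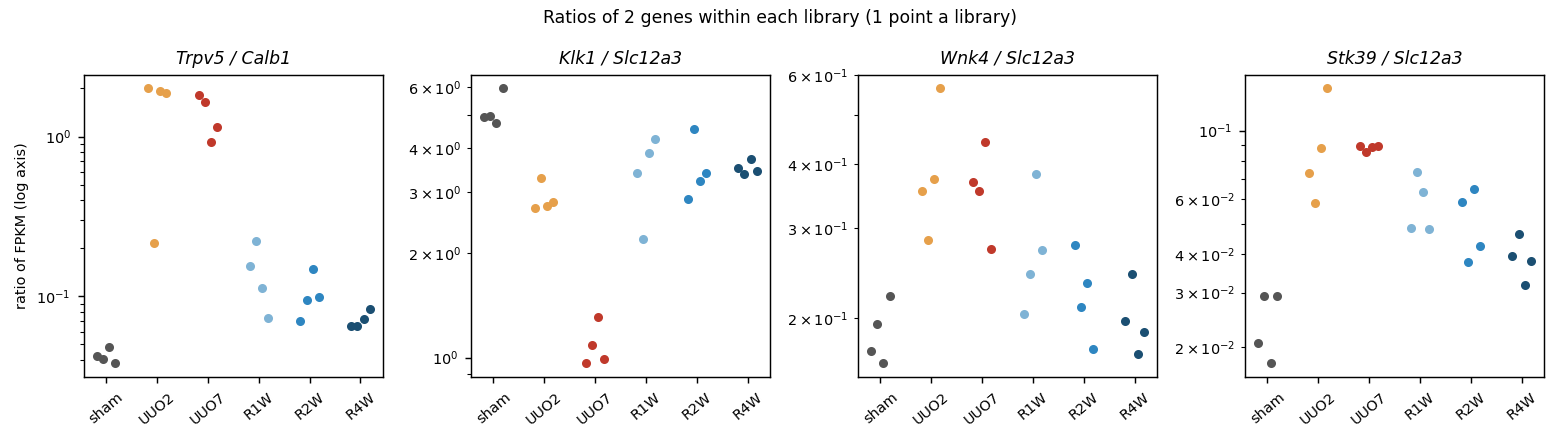
Ratio of the FPKM of 2 genes in each library (points; y axis, log scale) by group. Trpv5 to Calb1 is 0.921 or more in UUO7 and in UUO2 except replicate 2 (0.215), and above sham in all R4W libraries, and Klk1 to Slc12a3 is lowest in UUO7.

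After 4 weeks of recovery Trpv5 was lower than in UUO7, and Calb1 and Slc8a1 were higher. Trpv5 was 8.83, 9.60, 6.64 and 6.08 FPKM at R1W, 5.22, 8.86, 9.85 and 11.4 at R2W, and 5.58, 6.81, 6.04 and 8.72 in R4W. On deposited values all recovery libraries stayed above the highest sham library. Rescaled, R1W stayed above sham and differed by 0.50 (limma adjusted p = 0.0867), and R2W overlapped sham and differed by 0.69 (limma adjusted p = 0.0232). R4W lay below UUO7 by -0.78 (SE 0.25, limma adjusted p = 0.0146) and above sham by 0.71 (SE 0.25, limma adjusted p = 0.0181). The rescaled difference from sham was 0.40 (adjusted p = 0.187) with overlapping ranges, and on deposited values the call was lost without sham replicate 4 or R4W replicate 4 (adjusted p 0.0501 and 0.0595).

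Calb1 was 57.4, 43.5, 59.2 and 82.6 FPKM at R1W, 74.7, 93.2, 66.3 and 115.6 at R2W, and 86.1, 104.2, 84.1 and 105.4 in R4W. It rose from UUO7 to R1W by 2.56 (SE 0.29, limma adjusted p = 2.41e-05), and its R4W range overlapped sham (0.10, limma adjusted p = 0.778, or -0.28 rescaled). Slc8a1 was 4.87, 4.58, 1.84 and 3.89 FPKM at R1W, 5.82, 6.50, 6.29 and 10.1 at R2W, and 5.85, 7.46, 6.23 and 8.50 in R4W. R1W replicate 3 was the only R1W library within the UUO7 range, and R2W and R4W overlapped sham. Slc8a1 exceeded UUO7 in R1W by 0.59 (SE 0.24, limma adjusted p = 0.108), and without R1W replicate 3 by 0.82 (adjusted p = 0.0224). R4W exceeded R1W by 0.78 (SE 0.24, limma adjusted p = 0.0318), a call lost without R1W replicate 3 or R4W replicate 2 or 4 (adjusted p 0.0614 to 0.159). Against sham the R4W difference was 0.23 (limma adjusted p = 0.421), or -0.10 rescaled.

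Of 8 other calcium-handling genes limma called 5 lower and 2 higher in UUO7 against sham, or 5 lower and 1 higher rescaled. The shares of all genes were again 17.8% lower and 60.1% higher, or 36.5% each way. The median of these 8 was -0.78, or -1.26 rescaled, and that of all genes 0.42 and 0.01. Trpv6, the channel most like Trpv5, rose from 0.773 ± 0.336 FPKM (SD, n = 4) to 11.6 ± 1.04, a difference of 2.85 (limma adjusted p = 1.66e-09), or 2.54 rescaled. Atp2b1, a plasma membrane calcium pump found in most cells, rose by 0.62, or 0.17 rescaled (adjusted p not under 0.05). S100g, calbindin-D9k, fell from 1240 ± 109 FPKM (SD, n = 4) to 192 ± 26.3, Kl, the FGF23 coreceptor Klotho, fell by 2.25 on the log2 scale, and Casr, the calcium-sensing receptor, fell by 1.69. In R4W against sham 3 were higher and 4 lower (54.8% and 11.6% of all genes), and rescaled 2 were higher and 4 lower (28.9% and 31.1% of all genes). Trpv6 was among the higher ones (1.38, limma adjusted p = 5.03e-05), with 3.57 ± 0.273 FPKM (SD, n = 4).

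Klk1 (ENSMUSG00000063903, chromosome 7, 44225360 to 44229618, plus strand), the kallikrein secreted by the connecting tubule, had the highest level of the 10 genes in sham, with 2099, 2243, 2122 and 2213 FPKM. It was 321, 811, 298 and 242 FPKM in UUO2 and 131, 153, 168 and 179 in UUO7. No obstructed kidney overlapped sham, and all UUO7 kidneys lay below all UUO2 kidneys. Klk1 was lower in UUO7 than in UUO2 by -1.23 (SE 0.32, limma adjusted p = 0.0018), or -1.58 rescaled. The ratio of Klk1 to Slc12a3 was 4.73 to 5.95 in sham, 2.70 to 3.29 in UUO2 and 0.964 to 1.31 in UUO7, with no overlap between the 3 groups.

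In recovery Klk1 was 1253, 529.9, 923 and 1294 FPKM at R1W, 811, 1811, 954 and 1568 at R2W, and 1429, 1140.4, 1579 and 1715 in R4W. Every recovery library lay above UUO7 and below sham. The R4W difference from sham was -0.58 (SE 0.32, limma adjusted p = 0.109). It was called when rescaled (-0.96, adjusted p = 0.02) and when the 2 groups were fitted alone (adjusted p = 0.0026). The Klk1 to Slc12a3 ratio in R4W was 3.37 to 3.73, below every sham library. Klk1 has 13 protein-coding Klk1b relatives, whose transcripts share 82.0% to 94.2% of aligned bases with its own 954 bases, so the split of reads between copies is uncertain. The 2 relatives with an entry were low, at 2.06 ± 0.204 FPKM (SD, n = 4) in sham for Klk1b5 and 1.01 ± 0.259 for Klk1b9.

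Of 7 kallikrein-kinin genes besides Klk1, limma called 5 lower and 1 higher in UUO7 against sham, the same counts rescaled, where 17.8% of all genes were lower and 60.1% higher, or 36.5% each way rescaled. The median of the 7 was -0.77, or -1.26 rescaled, and that of all genes 0.42 and 0.01. Ace, which degrades kinins, fell by 1.45 on the log2 scale, and Mme, another kinin-degrading protease, fell by 0.96. Klk1b5 fell by 1.00. Bdkrb2, the kinin B2 receptor, rose from 0.345 ± 0.132 FPKM (SD, n = 4) to 2.30 ± 0.329 (limma adjusted p = 1.68e-06), or by 1.09 rescaled. In R4W against sham 1 was lower and 1 higher (11.6% and 54.8% of all genes), and the number called was 1 without sham replicate 1 or 3 or R4W replicate 2 or 3. Rescaled, 3 were lower and 0 higher (31.1% and 28.9% of all genes). Of 6 sodium and potassium handling genes of the connecting tubule with an entry, 3 were lower in UUO7: Kcnj1, the secretory potassium channel, fell by 1.23, Scnn1a, the alpha subunit of the sodium channel, fell by 1.19, and Nr3c2, the mineralocorticoid receptor, fell by 0.45. Rescaled, 5 were lower, and 0 were higher on either scale. The median of the 6 was -0.25, or -0.66 rescaled. In R4W 4 of the 6 were higher than sham and 0 lower on deposited values, where 54.8% of all genes were higher and 11.6% lower. On rescaled values 0 of the 6 were called in either direction, where 28.9% of all genes were higher and 31.1% lower.

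**Figure D3:**
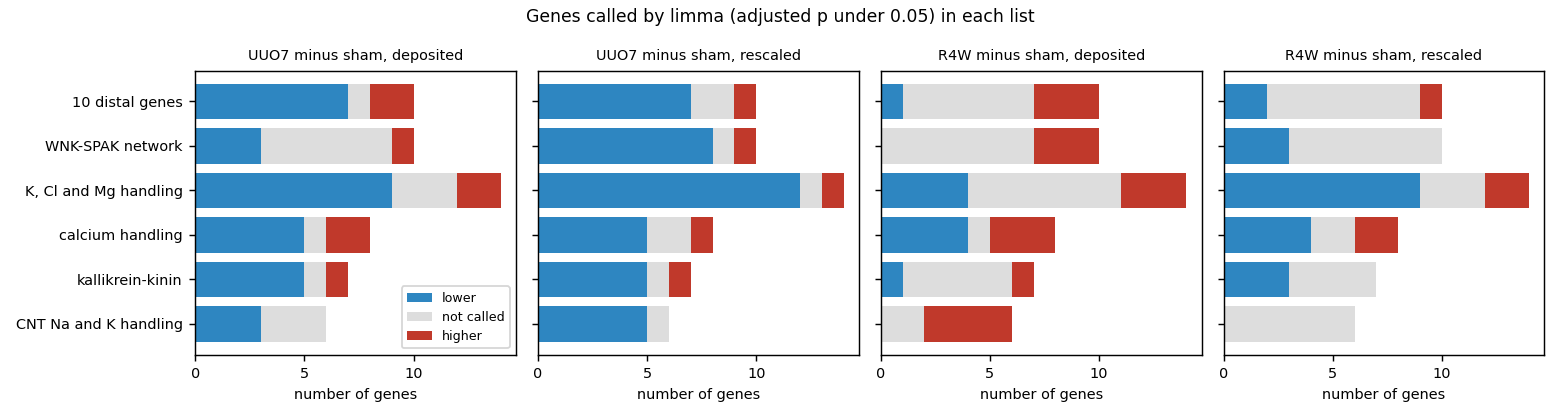
Number of genes (x axis) called lower, not called and called higher by limma in the 10 genes and 5 related lists. In UUO7 against sham every list had more genes lower than higher on both scales; in R4W against sham rescaling gave fewer higher calls.

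After reversal most of the lowered genes were higher than in UUO7. In R1W against UUO7 limma called 6 of the 10 higher (Slc12a3, Pvalb, Calb1, Wnk1, Wnk4 and Klk1) and 0 lower, with deposited and with rescaled values. Of all genes 6.47% were called higher and 8.04% lower, or 7.26% and 7.14% rescaled. At an unadjusted p under 0.05 there were 9 of the 10 in either direction, where 30.5% of all genes were. The median difference of the 10 was 0.57 and that of all genes -0.02. The calls and sizes are shown in the plot of limma differences.

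**Figure D4:**
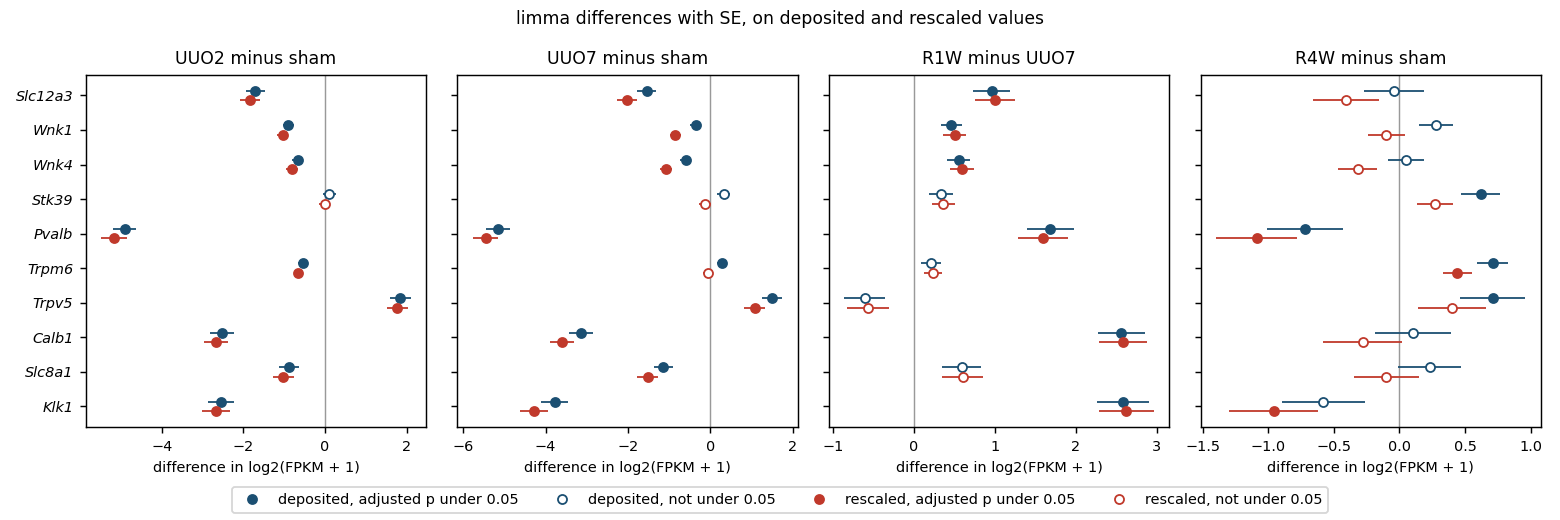
Difference in log2(FPKM + 1) (x axis) with its SE for the 10 genes in 4 comparisons, on deposited (blue) and rescaled (red) values; filled points passed an adjusted p under 0.05. On this scale Calb1 and Klk1 differ from UUO7 in R1W by 2.56 and 2.58, while the size for Pvalb (1.68) rests on the pseudocount, and 4 filled blue points remain in R4W against sham.

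The share of the fall regained was the rise of a kidney above the UUO7 mean as a percentage of the distance between the UUO7 and sham means. In R4W the mean share was 97.1% for Slc12a3, 108% for Calb1, 65.0% for Klk1 and 59.4% for Pvalb. Rescaled, these shares were 67.8%, 81.4%, 49.5% and 45.8%. The kidneys ranged from 69.0% to 126% for Slc12a3, from 94.7% to 122% for Calb1, from 48.8% to 77.4% for Klk1 and from 55.7% to 64.8% for Pvalb. The Calb1 range did not overlap those of Klk1 and Pvalb on either scale, while the Slc12a3 range overlapped those of Calb1 and Klk1. Rescaled, the Slc12a3 range (47.0% to 90.2%) also overlapped that of Pvalb (42.0% to 49.6%). In R1W the mean share was 51.0% for Slc12a3, 65.0% for Calb1, 41.9% for Klk1 and 7.18% for Pvalb, or 33.9%, 46.7%, 30.7% and 5.38% rescaled. The small fall of Wnk1 makes its share of 196% in R4W (85.9% rescaled) depend on the scaling.

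**Figure D5:**
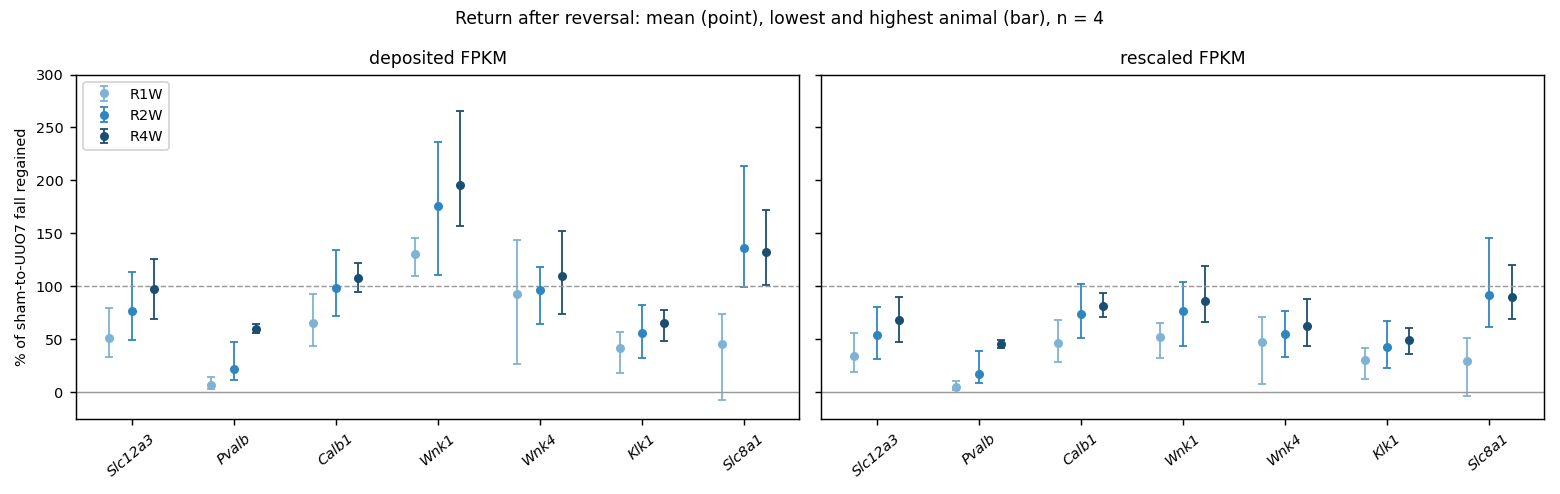
Percentage of the fall from sham to UUO7 that was regained (y axis) in R1W, R2W and R4W for the 7 genes that were lower in UUO7, as the mean (point) and the lowest and highest of 4 animals (bars). Pvalb and Klk1 stay under the dashed line at full return in every animal of every recovery group.

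At 4 weeks 4 of the 10 genes differed from sham: Trpm6, Trpv5 and Stk39 were higher and Pvalb was lower, where 54.8% of all genes were called higher and 11.6% lower. Rescaled, Trpm6 alone was higher and Pvalb and Klk1 were lower, against 28.9% and 31.1% of all genes. The median of the 10 was 0.16 and that of all genes 0.30, or -0.19 and -0.01 rescaled. Several marker lists of other cell types differed from sham in R4W: limma called 6 of 6 proximal tubule markers lower (median -0.94), and 5 of 5 macrophage (3.60), 5 of 5 fibroblast (2.79), 5 of 5 injured tubule (2.55), 5 of 5 endothelium (1.17; 4 of 5 rescaled), 4 of 4 podocyte (1.36) and 4 of 4 urothelium markers (3.02) higher. Among neighbouring segments 3 of 5 thick ascending limb (-0.06), 4 of 5 principal cell (0.42) and 3 of 5 intercalated cell markers (0.26) were not called. The part of these cells in the differences of the 10 genes was not tested. With R4W replicate 2 left out, or placed in R2W, 3 of the 10 were called. Without R4W replicate 4, 2 were called, and leaving out any other library gave 3 or 4. Between R1W and R4W limma called Pvalb and Slc8a1, both higher in R4W, where 5.06% of all genes were called higher and 14.1% lower (8.67% and 8.60% rescaled). Without R1W replicate 3, R4W replicate 2 or R4W replicate 4, only Pvalb was called. In R4W against UUO7, where 17.6% of all genes were called higher and 30.8% lower (25.1% and 23.2% rescaled), all but Stk39 were called, Trpv5 lower and 8 higher. Rescaled, Stk39 was called too (0.40, limma adjusted p = 0.0271), which made 9 higher and 1 lower. In R1W against sham 4 of the 10 were lower and 3 higher, where 14.7% of all genes were lower and 59.4% higher, and rescaled 7 were lower and 0 higher (34.6% and 33.7% of all genes). In R2W against sham 2 were lower and 3 higher, where 12.9% of all genes were lower and 56.1% higher, and rescaled 4 were lower and 3 higher (32.5% and 31.1%). In UUO7 against UUO2 Trpm6 and Wnk1 were higher and Klk1 was lower, where 52.0% of all genes were called higher and 14.7% lower. Rescaled, 1 was higher and 3 were lower (30.0% and 31.9% of all genes). Without UUO2 replicate 2, 5 of the 10 were called on deposited values, where 63.5% of all genes were.

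Likeness over the 24 libraries was ranked by Pearson's r of log2(FPKM + 1) among 9695 genes whose mean reached 5 FPKM. The ranking left out the marker and regulator genes described here, and genes with symbols of the Gm, Rik, AC, AL or BC kind. How closely those left out follow Slc12a3 or Klk1 was therefore not ranked. The 5 ranked genes most like Slc12a3 were Klhl3 (0.981), Scn4b (0.974), Egf (0.969), Insrr (0.967) and Fam81a (0.967). For Klk1 they were Ak4 (0.969), Egf (0.962), Ces1e (0.962), Tnfaip8 (0.960) and Iqsec2 (0.959). These values describe 24 libraries that share group differences and scaling.

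The authors' deposited table also holds log2 fold changes of its own, and their size was close to the rescaled differences for most of the 10 genes. In UUO7 against sham the authors' deposited table gives -2.03 for Slc12a3, -3.61 for Calb1 and -4.27 for Klk1, beside rescaled differences of -2.02, -3.60 and -4.27. Wnk4 stood apart: the authors' deposited table gives -1.76 where the rescaled difference was -1.08. Of 4963 genes whose mean reached 20 FPKM, 3.18% had a gap of 0.5 or more in that comparison. In R4W against UUO7 the authors' deposited table gives 1.34 for Wnk4 and the rescaled difference was 0.76. GENCODE M21 lists 5 transcripts of Wnk4, from 462 to 4117 bases long, and FPKM divides by a length while the basis of the authors' values is not given in the sources used here. The cause of the gap was not tested. For Pvalb, near 0 in UUO7, the authors' deposited table gives -11.94 with no error beside it.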

How the data were processed

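Kidney RNA of 24 mice was sequenced, and the titles of the samples gave the group and replicate number. Per the submitters' processing notes, FastQC, RSEM, Bowtie2 and DESeq2 were used with the mm10 build; their versions and roles are not given in the sources used here. The authors deposited 1 value per gene and library for 14785 genes. Per the file headers this value has no unit, and FPKM was inferred from the values: low values rise in whole-fragment steps that depend on transcript length in 20 libraries. The smallest gene mean is 1, so genes below that are not analysed here. The authors also deposited log2 fold changes for 15 comparisons, with adjusted p-values that are not printed here; the test behind these deposited p-values is not stated per the file headers. Coordinates are the deposited ones, and 8 of the 10 genes have the same start and end in GENCODE M21.

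From the FPKM values, limma 3.58.1 in R 4.3.3 (lmFit, contrasts.fit, eBayes with trend) was fitted on log2(FPKM + 1) with all 24 libraries and all genes in 1 model, 1 coefficient per group, and Benjamini-Hochberg adjustment over all genes. Rescaling divided each library by its median ratio to the geometric mean of each gene. No count model was used. The fit and the step search were tested on simulated data. Other scripts used Python 3.11.15, pandas 2.3.3 and Biopython 1.88. Libraries are separate animals, and p-values weigh a difference of group means against the spread between animals within groups, pooled over the groups. Depth limits low genes such as Trpm6. Alternatives were other pseudocounts (0.1 and 10), a minimum mean of 10 FPKM, a minimum absolute difference of 1, the 2 groups alone, no UUO2 libraries, R4W replicate 2 placed in R2W, a replicate block and each library left out. The 10 genes, the related lists and the tests were chosen with earlier results of these data known. Of the related lists, up to 3 genes each were named by the size of their UUO7 difference and the number of comparisons called, plus those that moved against their list; Cab39, Sgk1 and Tfap2b were named after their values were seen.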

Additional observations from a re-analysis of the deposited data

Results flagged for a closer look

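Of 60 checks for a library far from the other 3 of its group (10 genes in 6 groups), 9 were positive. For independent and normally spread values the rate would be about 1 in 20, or 3. These checks are not independent, as 4 of the 9 fell in UUO2 replicate 2, and Pvalb in UUO7 is near 0. In UUO2 replicate 2, 4 of the 10 genes stood apart, all towards sham: Pvalb at 0.51 FPKM (the others 0.09 to 0.15), Calb1 at 38.1 (9.10 to 11.0), Wnk1 at 82.9 (46.0 to 49.6) and Klk1 at 811 (242 to 321). In that library the 3 further distal convoluted tubule markers summed to 103.75 FPKM, against 43.5 to 46.6 in the other 3, the 5 thick ascending limb markers to 1705 against 820.0 to 1098, and the 5 injured tubule markers to 779 against 1189.7 to 1435. Their part in its values was not tested. Without this library UUO2 against sham had 9 of the 10 genes called, where 52.7% of all genes were.

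Pvalb was 0.04 FPKM in UUO7 replicate 1 and listed at 0 in the other 3. Pvalb was 16.6 FPKM in R2W replicate 2, against 4.20 to 5.65. Wnk4 was 57.0 FPKM in UUO7 replicate 3, against 49.4 to 50.4. Slc8a1 was 10.1 FPKM in R2W replicate 4, against 5.82 to 6.50. Stk39 was 16.1 FPKM in UUO7 replicate 4, against 11.4 to 12.1.

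Trpm6 and Wnk1 had groups on opposite sides of sham, with every library above or below all sham libraries on deposited values. Trpm6 was above sham in R2W and R4W and below it in UUO2, and the differences from UUO2 were 1.24 (limma adjusted p = 3.52e-08) for R2W and 1.25 (limma adjusted p = 3.32e-08) for R4W, or 1.07 and 1.10 rescaled. Wnk1 was above sham in R4W and below it in UUO2 and UUO7. R4W differed from UUO2 by 1.18 (limma adjusted p = 1.5e-07) and from UUO7 by 0.64 (limma adjusted p = 0.000389), or 0.94 and 0.75 rescaled. The rescaled Wnk1 ranges of R4W and sham overlapped.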

How the results depend on the processing

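With a minimum absolute difference of 1, the number of the 10 genes called fell to 5 in UUO2 (8.75% of all genes passed the same minimum), 6 in UUO7 (27.6%), 2 in R1W (20.4%), 2 in R2W (16.6%) and 0 in R4W (14.8%) against sham, 1 in UUO7 against UUO2 (16.2%), 3 in R1W (1.33%) and 5 in R4W (6.03%) against UUO7, and 1 in R4W against R1W (0.771%). In R4W against sham limma gave 5 of the 10 an unadjusted p under 0.05 without the minimum, where 69.5% of all genes had one, and the largest difference of the 10 was 0.72. A minimum mean of 10 FPKM tested 7 of the 10 and called 4 in R1W (76.9% of all genes tested), 3 in R2W (71.4%) and 2 in R4W (67.3%) against sham and 1 in R4W against R1W (26.6%). Every difference that was tested kept its side of the threshold there, so the lower counts come from the 3 genes not tested. For R4W against R1W the count was 2, and it was 1 with the 2 groups alone, 1 with R4W replicate 2 placed in R2W, and 4 without UUO2. The cause was not tested.

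Leaving out each library in turn gave 8 to 10 calls in UUO7 and 9 in UUO2 against sham. It gave 5 to 7 in R1W, 4 to 5 in R2W and 2 to 4 in R4W against sham. In UUO7 against UUO2 it gave 3 to 5, with 5 without UUO2 replicate 2, where 63.5% of all genes were called. It gave 5 to 7 in R1W and 9 to 10 in R4W against UUO7, and 1 to 2 in R4W against R1W. Of the gene differences in these fits 663 kept their direction and side of the threshold, 30 lost the call, 9 gained it and 18 changed sign. Signs changed for Stk39 in UUO2 against sham (-0.01 to 0.23) and R4W against R1W (-0.11 to 0.04), Wnk4 in R1W (-0.14 to 0.07), R2W (-0.05 to 0.04) and R4W (-0.02 to 0.11) against sham, UUO7 against UUO2 (-0.02 to 0.23) and R4W against R1W (-0.02 to 0.19), Calb1 in R2W (-0.19 to 0.08) and Slc12a3 in R4W (-0.13 to 0.06) against sham, and Slc12a3 (-0.02 to 0.48) and Slc8a1 (-0.43 to 0.02) in UUO7 against UUO2; none of these was called on all libraries.

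Rescaling changed the sign of 14 of 90 differences, of which 1 was then called, Wnk1 in R1W against sham (-0.35), and 1 had been called before, Trpm6 in UUO7 against sham (-0.06). The other 12 were not called on either scale: Stk39 in UUO2 (-0.01) and UUO7 (-0.13) against sham, UUO7 against UUO2 (-0.11) and R4W against R1W (0.04), Wnk1 in R2W (-0.17) and R4W (-0.10), Slc8a1 in R2W (-0.10) and R4W (-0.10), Calb1 in R4W (-0.28), Wnk4 in R4W (-0.32) against sham, and Wnk4 (-0.28) and Slc12a3 (-0.18) in UUO7 against UUO2. With R4W replicate 2 placed in R2W, Calb1 in R2W (0.01) and Slc12a3 in R4W (0.06) changed sign. Apart from these and from leaving out single libraries, no alternative changed the sign of a difference of the 10 genes.

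Replicate numbers did not pair the animals: in no comparison did all same-numbered pairs deviate together with r over 0.1 (mean r -0.127 for UUO7 and sham). With the replicate number as a block 89 of 90 differences kept their call. Stk39 in UUO7 against sham passed the threshold (0.32, limma adjusted p = 0.0429), which made 10 of the 10 called. Without the block 60.1% of all genes were called higher and 17.8% lower in that comparison, and the share with it is not given here. Depth is unknown for UUO2.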
